A study of Mus musculus with 8 samples.

Results

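The phagocyte NADPH oxidase is an enzyme complex whose subunits were examined here as 6 genes, Cybb, Cyba, Ncf1, Ncf4, Rac1 and Rac2, out of 17035 protein-coding genes that could be tested in the mouse cerebral cortex. The genes were chosen by name as subunits of the complex, with earlier results of these data known. For each gene the ATAC-seq peaks that overlapped the gene body and 3 kb on either side, called its locus here, were collected from 8 libraries. After narrowing of both carotid arteries, Rac2 had more of its locus under peaks than after sham surgery, with 725 ± 295 bp (SD, n = 4) against 118 ± 137 bp (SD, n = 4). It was the 1 gene of the 6 that passed the test across all genes, in which 3.16% of the genes were called higher. Rac2 kept this call under 13 of 20 alternatives to the main processing. The loci of Ncf4, Ncf1, Cyba, Rac1 and Cybb also had more bases under peaks on average, but their differences did not pass that test. For Rac1, 1 sham library with 643 bp under peaks lay far below all others. No library had a peak within 1 kb of a Cybb transcript start.

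ATAC-seq cuts DNA with a transposase where chromatin is open, so a peak marks a stretch of accessible DNA, such as an active promoter or enhancer. The 8 libraries came from male C57BL/6 mice, with 1 library per mouse. In 4 mice, wire microcoils with inner diameters of 0.16 mm and 0.18 mm were placed around the right and left common carotid arteries at 11 weeks of age (bilateral common carotid artery stenosis, BCAS), which lowers blood flow to the brain without closing the vessels, and 4 mice had a sham operation. Cortex was taken about 3 weeks later, at about 14 weeks of age. The sample labels name the right cerebral cortex as the tissue, the side of the narrower coil, while the study's supplement speaks of whole-brain cortex from which cerebellum and olfactory bulb had been removed. No other allele or agent was used in either group. Nuclei of all cortical cells were pooled, so more cells of a type and more open chromatin per cell cannot be told apart.

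The oxidase carries electrons from NADPH across a membrane onto oxygen, and the superoxide it makes is used by neutrophils, macrophages and microglia against microbes and as a signal. Its membrane part, cytochrome b558, is formed by the catalytic subunit gp91phox, also called NOX2 (Cybb), and by p22phox (Cyba), which keeps it stable. In resting cells the cytosolic subunits, among them p47phox (Ncf1) and p40phox (Ncf4), stay apart from it, and on activation they move to the membrane together with a GTP-bound Rac GTPase, which is mainly Rac2 in blood phagocytes while Rac1 is made in nearly all cells.

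The libraries held 107391 to 144988 peaks in the sham group and 119565 to 160720 in the BCAS group, and the genome under peaks came to 44.53 to 60.8 Mb in sham and 48.92 to 66.26 Mb in BCAS. Sham replicate 1 had the fewest peaks and BCAS replicate 1 the most. Read counts are not part of the lists, and the depth of each peak is therefore unknown. Peaks of all libraries that shared at least 1 bp were merged into 197916 regions, of which 24 lay in the 6 loci. Cybb had 3 of them, Cyba 2, Ncf1 4, Ncf4 6, Rac1 7 and Rac2 2. Of the 24, 13 had their midpoint in an intron, 5 upstream of the gene, 4 in a UTR and 2 downstream of the gene.

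The stretches below show the DNA of 6 regions described in detail further on, chosen after their values were seen from those with peaks or ranks higher in BCAS, and of the Cybb promoter, where no peak was found. Regions found in more sham than BCAS libraries are not printed. All are from the GRCm38 (mm10) genome and are written 5′ to 3′ on the strand of the gene. Capitals mark matches, on either strand, to 9 short motifs of transcription factors active in myeloid cells or at promoters. These were PU.1 (GAGGAAGT), ETS (CCGGAAGT), PU.1-IRF (GGAANNGAA), IRF (GAAANNGAA), RUNX (TGTGGTT), C/EBP (TTGCNNAA), AP-1 (TGANTCA), NF-kB (GGGANTTTC) and SP1 (GGGCGGG), where N is any base. The PU.1-IRF letters can overlap a PU.1 or an IRF match. For the regions at the starts of Rac2 and Ncf1, the part before the gene start is shown. For Rac2 intron 1, the upstream Ncf1 region, the Ncf4 intron and the Cyba intron, the 201 bp centred on the summit of the strongest peak are shown. For Cybb, the 250 bp before the start in RefSeq are shown, from the RefSeq promoter table of GRCm38.p6, which also held Ncf1 and Cyba.
Rac2 start, chr15:78572784-78572987, minus strand: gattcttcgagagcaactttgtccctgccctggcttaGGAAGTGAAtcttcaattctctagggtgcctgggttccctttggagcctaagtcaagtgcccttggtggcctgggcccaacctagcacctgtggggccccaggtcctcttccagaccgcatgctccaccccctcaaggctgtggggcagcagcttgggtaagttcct
Rac2 intron 1, chr15:78571710-78571910, minus strand: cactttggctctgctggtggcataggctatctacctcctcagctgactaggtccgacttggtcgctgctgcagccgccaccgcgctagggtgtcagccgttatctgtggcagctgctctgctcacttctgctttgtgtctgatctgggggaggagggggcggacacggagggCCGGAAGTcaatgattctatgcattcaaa
Ncf1 start, chr5:134229626-134229775, minus strand: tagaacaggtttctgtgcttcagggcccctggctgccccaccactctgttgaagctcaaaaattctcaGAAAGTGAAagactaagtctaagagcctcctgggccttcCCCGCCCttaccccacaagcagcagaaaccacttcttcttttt
Ncf1 upstream, chr5:134232663-134232863, minus strand: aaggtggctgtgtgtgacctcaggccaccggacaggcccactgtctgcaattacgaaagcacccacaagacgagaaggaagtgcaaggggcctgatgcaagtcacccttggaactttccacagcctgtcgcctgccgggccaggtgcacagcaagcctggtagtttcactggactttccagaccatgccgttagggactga
Ncf4 intron, chr15:78258313-78258513, plus strand: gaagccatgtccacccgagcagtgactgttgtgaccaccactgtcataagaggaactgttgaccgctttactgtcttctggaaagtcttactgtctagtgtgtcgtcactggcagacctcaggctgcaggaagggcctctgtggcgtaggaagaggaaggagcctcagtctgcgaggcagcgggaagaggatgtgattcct
Cyba intron, chr8:122430374-122430574, minus strand: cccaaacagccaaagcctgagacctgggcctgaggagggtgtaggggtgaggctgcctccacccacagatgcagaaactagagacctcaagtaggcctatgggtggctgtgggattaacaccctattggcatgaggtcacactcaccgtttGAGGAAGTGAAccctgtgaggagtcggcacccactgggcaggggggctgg
Cybb promoter, chrX:9469325-9469574, minus strand: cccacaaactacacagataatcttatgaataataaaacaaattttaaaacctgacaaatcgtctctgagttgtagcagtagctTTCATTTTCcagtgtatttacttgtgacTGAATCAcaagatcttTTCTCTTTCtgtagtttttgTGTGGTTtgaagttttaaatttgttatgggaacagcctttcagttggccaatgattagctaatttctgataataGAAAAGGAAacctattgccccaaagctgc

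The data for each gene are given as the number of bases of its locus under peaks in each library. For the test, each library was scaled to the mean total length under peaks of the 8 libraries, and log2(scaled length + 200 bp) was compared between BCAS and sham with limma across the 17035 genes. A gene was called at a Benjamini-Hochberg adjusted p under 0.05. By that rule 3.16% of the tested genes were called higher in BCAS. Of the 6 oxidase genes, 1 was called higher, Rac2, and none was called lower. At an unadjusted p under 0.05, 4 of the 6 were higher in BCAS (Rac2, Ncf4, Ncf1 and Cyba), against 10.6% of the tested genes, and none was lower. All 6 log2 differences were above 0, against 50.4% of the tested genes, and their median was 0.41, against 0.0014 over all tested genes. Because of the added 200 bp, these differences understate changes in loci with few bases under peaks.

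**Figure D1:**
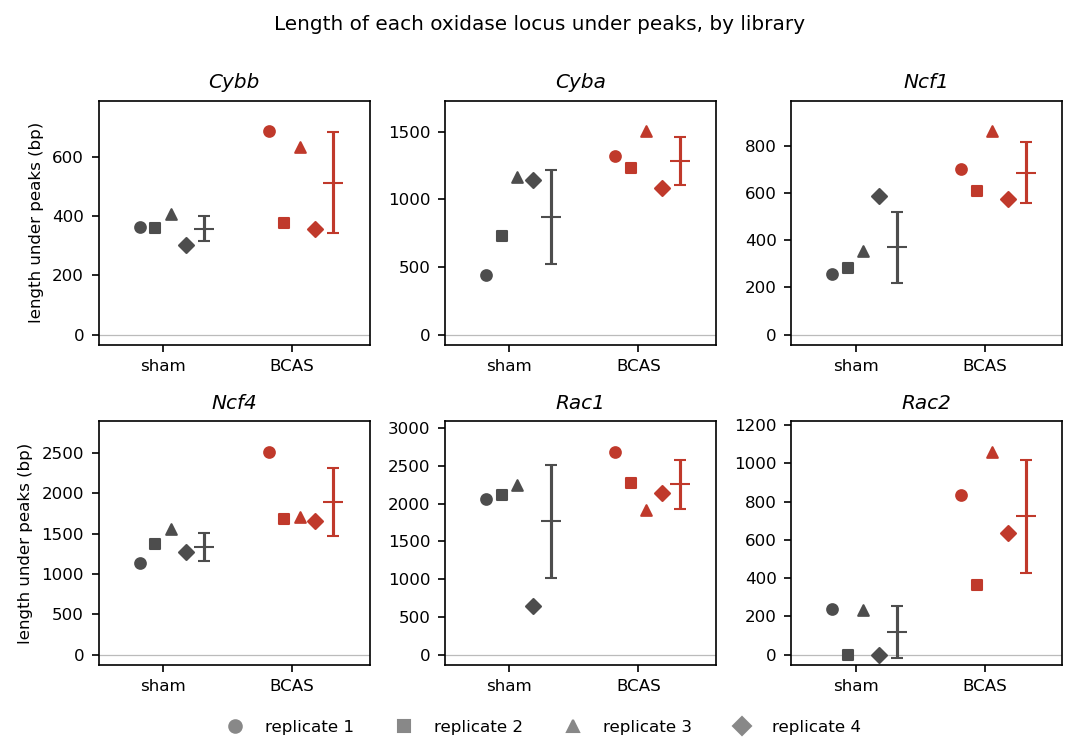
Length of each locus under peaks (bp, not scaled) in each library, with 1 panel per gene. Symbols are the replicate numbers, and the cross bar and whiskers beside them are the mean ± SD of 4 libraries. The 4 BCAS libraries lie above every sham library for Ncf4 and Rac2, and sham replicate 4 lies far below the others for Rac1.

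Of the membrane subunits, Cybb (chrX:9435252-9487771, minus strand) encodes the catalytic subunit. Its locus had 364, 361, 407 and 302 bp under peaks in sham replicates 1 to 4 and 688, 379, 636 and 356 bp in BCAS replicates 1 to 4. The groups overlapped, since BCAS replicates 2 and 4 lay among the sham libraries. The log2 difference was 0.26 (SE 0.20, limma adjusted p = 0.630). The region found in every library lay at the far end of the gene, in the 3′ UTR (chrX:9435573-9436060). The higher values of BCAS replicates 1 and 3 came from 1 further intronic peak each, at chrX:9460493-9460715 and chrX:9470868-9471076. The latter began 1544 bp upstream of the RefSeq start at position 9469324, and no peak covered the promoter printed above, although it holds 3 IRF matches, 1 RUNX match and 1 AP-1 match. Among 32851 RefSeq promoters, 8.56% hold an IRF match, 5.27% a RUNX match and 7.81% an AP-1 match. These promoters are 300 bp long and reach past the start, beyond the 250 bp printed. In that further part the Cybb promoter also holds a PU.1-IRF match, against 8.24% of the promoters over their full length.

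Cyba (chr8:122424776-122432930, minus strand) encodes the partner that stabilises gp91phox. Its locus had 441, 732, 1167 and 1141 bp under peaks in sham replicates 1 to 4 and 1319, 1235, 1502 and 1082 bp in BCAS replicates 1 to 4. The sham libraries ranged widely, and BCAS replicate 4 lay below sham replicates 3 and 4. After scaling, sham replicate 4 (1354 bp) lay above BCAS replicates 1, 2 and 4. The log2 difference was 0.46 (SE 0.20, limma adjusted p = 0.258). A region over the gene start (chr8:122432312-122433429) had a peak in every library, and an intronic region (chr8:122429999-122430597) lacked a peak only in sham replicate 1. Without sham replicate 4 the log2 difference was 0.65 with a limma adjusted p of 0.0474, while over all alternatives to the main processing the adjusted p ranged from 0.0474 to 1.0. The intron region holds, in the letters printed above, a PU.1 match that overlaps a PU.1-IRF match. Both Cyba regions also lie inside Gm20388, a longer protein-coding gene model, whose own log2 difference was 0.08 (SE 0.028, limma adjusted p = 0.131). The neighbours Il17c and Mvd, which reach into the 3 kb sides, had log2 differences of −0.10 (SE 0.15) and 0.11 (SE 0.11) and limma adjusted p of 0.874 and 0.762.

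Ncf1 (chr5:134220053-134229625, minus strand) encodes p47phox, the organizer that is phosphorylated on activation and brings the other cytosolic subunits to the membrane. Its locus had 256, 283, 355 and 588 bp under peaks in sham replicates 1 to 4 and 702, 608, 863 and 574 bp in BCAS replicates 1 to 4. Sham replicate 4 lay above BCAS replicate 4, and after scaling also above BCAS replicates 1 and 2 (697.9 bp against 560.0, 620.1 and 620.1 bp in BCAS replicates 1, 2 and 4). The other 3 sham libraries lay below every BCAS library on both scales. The log2 difference was 0.59 (SE 0.22, limma adjusted p = 0.169). Without sham replicate 4 it was 0.81 with a limma adjusted p of 0.0282, and over all alternatives the adjusted p ranged from 0.0282 to 0.455.

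The difference at Ncf1 lay in its promoter and upstream. A peak over the gene start (region chr5:134229494-134229775) was called in all 4 BCAS libraries and, among the sham libraries, in sham replicate 4 alone. It began between −150 and −87 bp and ended between 121 and 131 bp from the start, and its −log10 q as given by the authors' peak caller was 12.3 in sham replicate 4 and 17.5, 11.3, 10.5 and 10.8 in BCAS replicates 1 to 4. Its fold enrichment was also ranked among all peaks of the same library. The percentile was 36.9 in sham replicate 4 and lower in BCAS replicates 1 to 4, at 32.7, 25.7, 11.9 and 26.4. A further region, which begins 2974 bp upstream of the start (chr5:134232599-134232952), had a peak in all 4 BCAS libraries and in no sham library. It was the 1 region of the 24 with that pattern, which 1.62% of all merged regions had. By the same ranking its peaks stood at percentiles of 34.7, 25.7, 17.3 and 11.95 in BCAS replicates 1 to 4. It entered the locus by 27 bp, and the peaks of BCAS replicates 2 and 3 in it began beyond the 3 kb side, so it added little to the lengths above. Gtf2ird2, which overlaps the Ncf1 gene body, had a log2 difference of 0.29 (SE 0.12, limma adjusted p = 0.212). Between these lay a region centred at −1977 bp from the start, with a peak in every library.

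The Ncf1 start region holds an IRF match and an SP1 match in the printed stretch, and the upstream region holds none of the 9 motifs within 100 bp of its summit. Among the 32851 RefSeq promoters, 25.6% hold an SP1 match.

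**Figure D2:**
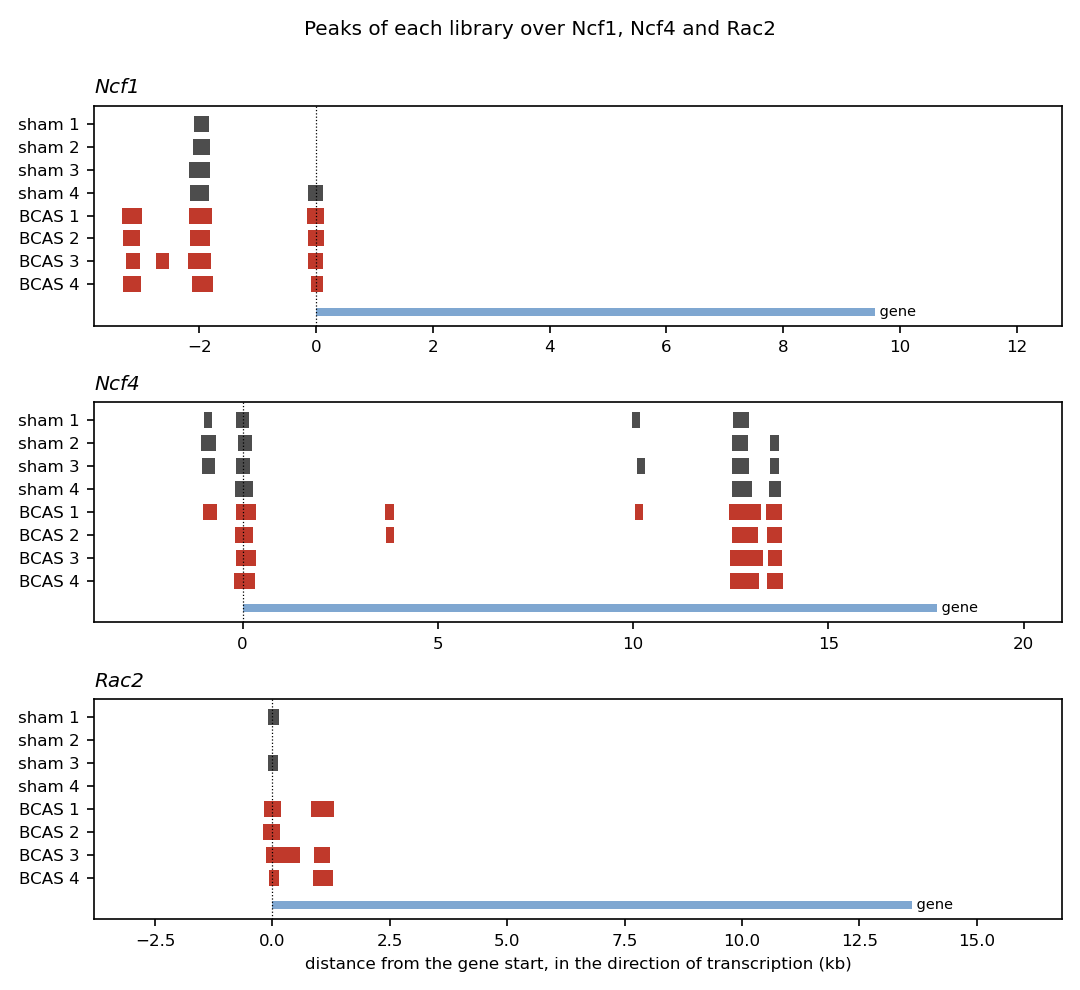
Peaks of each library (bars, grey for sham and red for BCAS) by distance from the gene start in kb, counted in the direction of transcription, over Ncf1, Ncf4 and Rac2 and the merged regions that overlap their loci. The blue bar is the gene. Peaks about 3 kb before the Ncf1 start and 1 kb into Rac2 appear in BCAS libraries and in no sham library.

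Ncf4 (chr15:78244801-78262580, plus strand) encodes p40phox, which binds, through its PX domain, a phosphoinositide of the phagosome membrane. Its locus had 1134, 1367, 1552 and 1271 bp under peaks in sham replicates 1 to 4 and 2513, 1686, 1709 and 1653 bp in BCAS replicates 1 to 4. Every BCAS library lay above every sham library, also after scaling. Ncf4 and Rac2 were the 2 of the 6 genes whose scaled groups did not overlap in this way, against 6.03% of the tested genes. The log2 difference was 0.36 (SE 0.11, limma adjusted p = 0.0913). The adjusted p was 0.0314 for the gene body without its sides, 0.0372 for peaks with a −log10 q of at least 5 and 0.0219 for lists cut to equal length, and over all alternatives it ranged from 0.0219 to 1.0. Within 1 kb of the transcript starts alone, the log2 difference was −0.06.

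Ncf4 peaks that differed between the groups lay at the gene start, by rank, and in an intron about 13 kb into the gene, by width or rank. To compare peak height between libraries, each peak's fold enrichment was ranked among all peaks of its own library and given as a percentile. The region over the Ncf4 start (chr15:78244590-78245152) reached percentiles of 58.6, 58.6, 60.3 and 64.6 in sham replicates 1 to 4 and 82.0, 76.4, 82.9 and 73.2 in BCAS replicates 1 to 4, and the groups did not overlap. Of all regions found in every library, 5.32% had BCAS percentiles above sham in this way. The lengths under peaks at the start did overlap, with 454 bp in sham replicate 4 and 453 bp in BCAS replicate 2. The intronic region chr15:78257252-78258114 had 393, 400, 424 and 523 bp under peaks in the sham replicates and 820, 651, 833 and 728 bp in the BCAS replicates, without overlap, a pattern of 3.53% of all regions found in every library. Its percentiles overlapped, with 43.3 in sham replicate 3 against 33.9 and 27.6 in BCAS replicates 2 and 4.

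Beside it, the intronic region chr15:78258215-78258633, printed above, had no peak in sham replicate 1. It reached percentiles of 27.5, 25.0 and 47.8 in sham replicates 2 to 4 and 90.7, 82.1, 65.3 and 84.6 in BCAS replicates 1 to 4. In BCAS replicates 1, 2 and 4 this was the strongest peak of the locus, ahead of the gene start, while in every sham library the gene start was the strongest. None of the 9 motifs lies within 100 bp of its summit. The start region holds 2 PU.1 matches in that window, 1 on each strand. Other Ncf4 regions went the other way, with a peak centred at −848 bp from the start in 3 sham libraries and in BCAS replicate 1 alone.

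Of the GTPases, Rac2 (chr15:78559167-78572783, minus strand) is the form made mainly in blood cells. Its locus had 239, 0, 234 and 0 bp under peaks in sham replicates 1 to 4 and 834, 367, 1061 and 636 bp in BCAS replicates 1 to 4. Sham replicates 2 and 4 had no peak in the locus at all, and every BCAS library lay above every sham library. The log2 difference was 1.55 (SE 0.33, 95% interval 0.87 to 2.24, limma adjusted p = 0.0122), and 250 of the tested genes had a smaller p. A gene needed a mean of 200 bp over the libraries to be tested. The sham mean of Rac2, 118 bp, lay below this, so Rac2 entered the test through its BCAS libraries. Without that minimum its limma adjusted p was 0.0133. The call was lost without BCAS replicate 1 (adjusted p = 0.0587) or BCAS replicate 3 (adjusted p = 0.0658). It was also lost without scaling, with the number of peaks as a covariate, in promoter windows, with a −log10 q of at least 5 and with lists of equal length, where the limma adjusted p was 0.0517 to 0.121. Over all 20 alternatives the log2 difference was 0.60 to 2.57 and the limma adjusted p 0.000251 to 0.121.

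The Rac2 peaks fell into a pair of regions. The first (chr15:78572202-78572987) covered the gene start, the first exon and the beginning of intron 1, with peaks of 239 and 234 bp in sham replicates 1 and 3 and of 356, 367, 725 and 204 bp in BCAS replicates 1 to 4. The peak of BCAS replicate 4 was thus no wider than those of the sham libraries. The second (chr15:78571484-78571961), in intron 1, had peaks of 478, 336 and 432 bp in BCAS replicates 1, 3 and 4 and none in BCAS replicate 2 or any sham library. The authors' −log10 q of these intron peaks was 11.1, 4.92 and 4.12, so those of BCAS replicates 3 and 4 were weak and were lost when a −log10 q of at least 5 was required.

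In the printed stretches, the part before the Rac2 start holds a PU.1-IRF match. Only the peaks of BCAS replicates 1 and 2 reach it, and over whole regions 14.4% of all merged regions hold such a match. The Rac2 intron region holds an ETS match. The only 1 of the 24 regions with an ETS match within 100 bp of its summit was this one, against 0.673% of all merged regions. No motif other than IRF lies within 100 bp of the summit at the Rac2 start.

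Rac1 (chr5:143503634-143528036, minus strand) encodes the broadly made form. Its locus had 2057, 2114, 2248 and 643 bp under peaks in sham replicates 1 to 4 and 2688, 2273, 1919 and 2139 bp in BCAS replicates 1 to 4. The groups overlapped, and sham replicate 4, whose only peak lay at the gene start, stood far below all other libraries. The log2 difference was 0.35 (SE 0.22, limma adjusted p = 0.511), and it was 0.04 without sham replicate 4. The region over the start (chr5:143527485-143528513) was among the strongest of each library, with percentiles of 97.0, 94.3, 98.6 and 88.2 in sham replicates 1 to 4 and 94.3, 90.5, 97.6 and 95.2 in BCAS replicates 1 to 4. The starts of the other genes stayed at or below the percentile 82.9 in every library. Another 2 Rac1 regions lay beyond the end of the gene inside its neighbour Daglb, whose log2 difference was 0.06 (SE 0.11, limma adjusted p = 0.889).

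**Figure D3:**
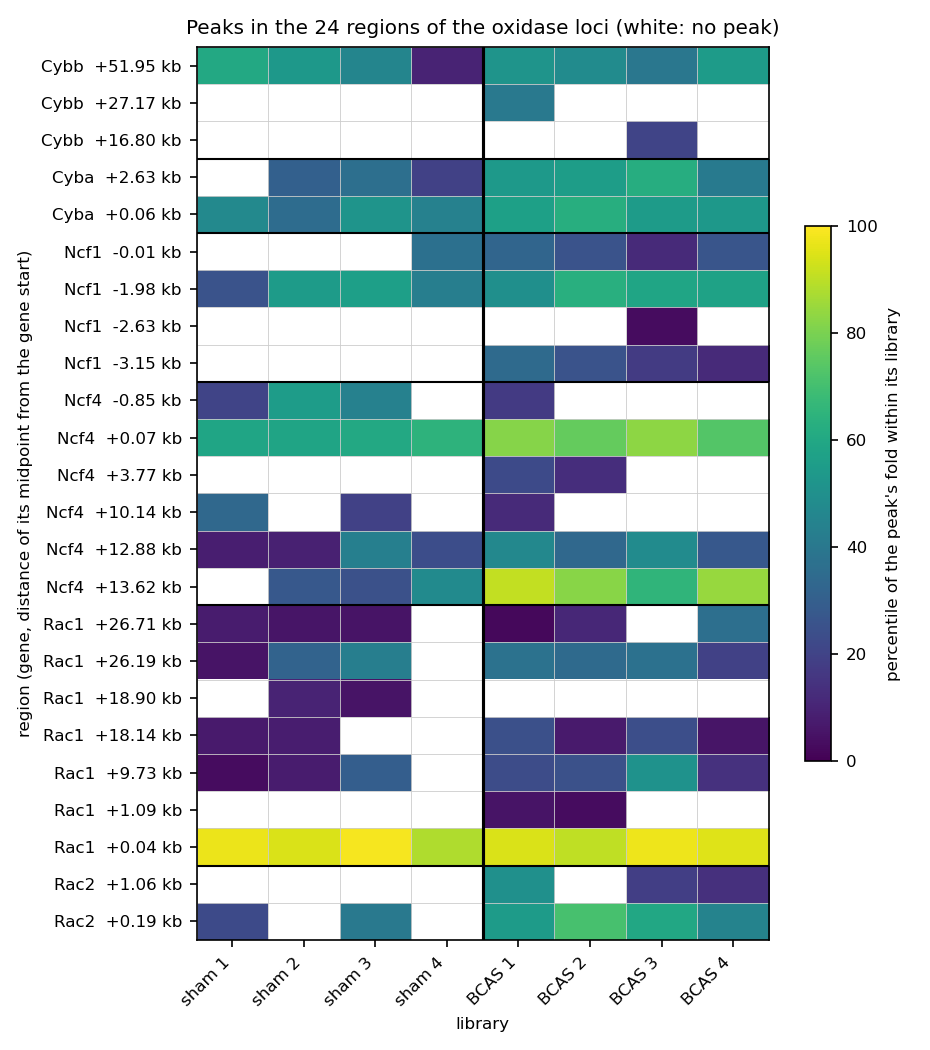
The 24 merged regions (rows, named by gene and by the distance of the midpoint from the gene start in kb) in the 8 libraries (columns). Colour is the percentile of the strongest peak's fold within its library and white is no peak. The Rac1 start is near the top of the scale in every library, the Ncf4 regions at the start and 13623 bp into the gene are brighter in BCAS, and 7 rows have colour in BCAS libraries only.

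Across the 24 regions, 14 had a peak in more BCAS than sham libraries, 3 in fewer and 7 in as many, while 30.4% of all merged regions were in more BCAS than sham libraries and 23.2% in fewer. Of the 24, 7 were found in BCAS libraries alone, against 16.8% of all merged regions, and 1, in Rac1, in sham libraries alone, against 10.3%. A peak was present in every BCAS library in 14 regions, against 45.2% of all merged regions, and in every sham library in 6, against 42.6%. These 6 were the regions found in all 8 libraries, against 36.2%. The sum over the 6 loci was 14, 16, 17 and 10 peaks in sham replicates 1 to 4 and 21, 16, 17 and 17 peaks in BCAS replicates 1 to 4. BCAS replicate 1 also had the most peaks over the genome.

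The strongest peak of each locus was compared by its percentile, which a longer tail of weak peaks in a list would raise. For Rac2 its percentile was 22.5, 0, 40.4 and 0 in sham replicates 1 to 4, where 0 stands for no peak, and 55.0, 71.1, 60.1 and 44.9 in BCAS replicates 1 to 4. For Cyba it was 47.1, 35.4, 51.9 and 43.8 in the sham replicates and 56.7, 62.8, 62.3 and 53.4 in the BCAS replicates. For Ncf4 it was 58.6, 58.6, 60.3 and 64.6 in the sham replicates and 90.7, 82.1, 82.9 and 84.6 in the BCAS replicates. In these 3 of the 6 genes every BCAS library lay above every sham library, against 7.41% of the tested genes. Cybb, Ncf1 and Rac1 overlapped between groups.

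Of the 6 regions found in every library, the starts of Cyba and Ncf4 had BCAS percentiles that all lay above the sham percentiles, against 5.32% of all regions found in every library. The intronic Ncf4 region centred 12882 bp from the start was the 1 of the 6 with longer coverage in every BCAS library, against 3.53%.

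Over the 24 regions, 2 held a PU.1 match within 100 bp of the strongest summit (8.33%), at the Ncf4 start and in the Cyba intron, against 2.91% of all merged regions. A PU.1-IRF match lay in 3 regions, against 6.82% of all, an IRF match in 4, against 6.59%, an SP1 match in 4, against 6.04%, and an AP-1 match in 2, against 15.0%. No RUNX, C/EBP or NF-kB match lay in these windows, against 4.48%, 9.76% and 0.699% of all regions. Over whole regions, 1 of the 24 held a RUNX match, against 9.39% of all, and 4 a C/EBP match, against 20%. These matches describe the letters alone.

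Further genes of the NADPH oxidase family were read from a list of 10 genes, of which 8 could be tested. None of the 8 was called, 6 of the 8 log2 differences were above 0, against 50.4% of the tested genes, and their median was 0.09. Nox4, a constitutively active oxidase that also pairs with p22phox, had 0 to 262 bp in sham and 246 to 969 bp in BCAS, with a log2 difference of 0.93 (SE 0.30, limma adjusted p = 0.114). Cybc1, a chaperone of the gp91phox and p22phox dimer, had a log2 difference of 0.12 (SE 0.20, limma adjusted p = 0.892). The locus of Duox2 had no peak in any library.

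**Figure D4:**
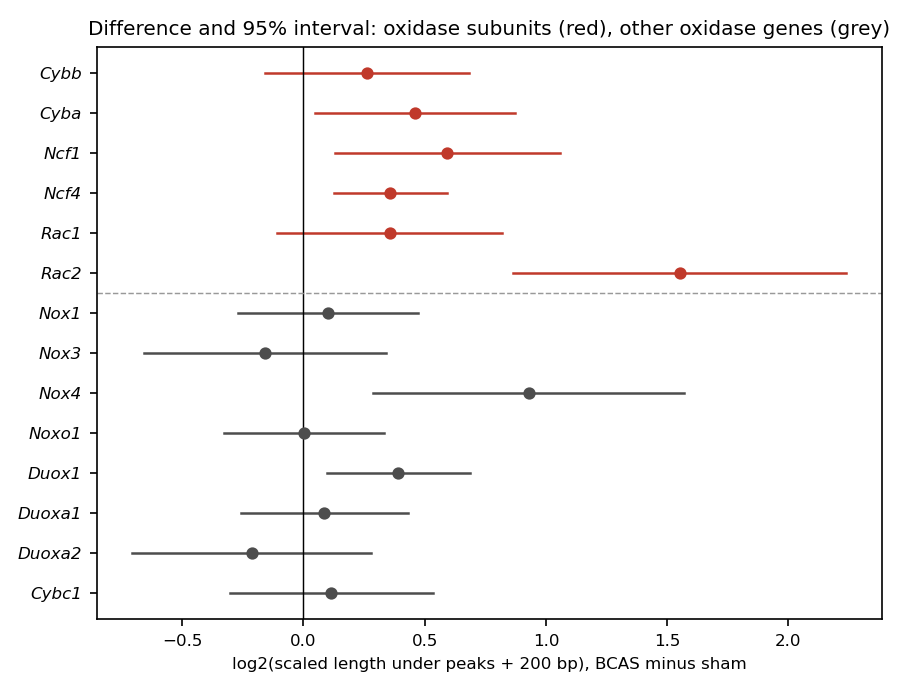
Difference between BCAS and sham in log2(scaled length under peaks + 200 bp) for the 6 oxidase subunit genes (red) and the 8 other oxidase genes that could be tested (grey). Points are limma estimates from 4 libraries a group and lines are 95% intervals. The interval of Rac2 lies farthest above 0.

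Among 21 genes of Rac activation and oxidase regulation, 15 log2 differences were above 0, against 50.4% of the tested genes, and the median was 0.14. Called higher in BCAS were 3, against 3.16% of the tested genes, and none was called lower. The 3 were Hvcn1, the voltage-gated proton channel that balances the charge moved by the oxidase (0.80, SE 0.15, limma adjusted p = 0.00538), Vav2 (0.78, SE 0.13, limma adjusted p = 0.00236) and Vav1 (0.61, SE 0.14, limma adjusted p = 0.0241). The VAV proteins are exchange factors that load Rac with GTP. The locus of Vav1, the form of blood cells, had 1264, 1084, 1842 and 1418 bp under peaks in sham replicates 1 to 4 and 2975, 2021, 2722 and 1868 bp in BCAS replicates 1 to 4, and these groups did not overlap. Rac3, the form of neurons, had a log2 difference of 0.13 (SE 0.15, limma adjusted p = 0.815). The summed scaled length of the 21 loci was 125450 to 129160 bp in sham and 133500 to 140190 bp in BCAS, without overlap.

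Markers of the cell types that make the oxidase were measured in the same way. All 12 microglial marker loci had log2 differences above 0, against 50.4% of the tested genes, with a median of 0.51. Called higher in BCAS were 3, against 3.16% of the tested genes, namely Itgam (2.36, SE 0.30, limma adjusted p = 0.000412), Gpr34 (1.44, SE 0.30, limma adjusted p = 0.0108) and Trem2 (0.68, SE 0.15, limma adjusted p = 0.0184). Itgam (0, 0, 252 and 0 bp in sham replicates 1 to 4) and Gpr34 (0, 200, 257 and 0 bp) reached the 200 bp minimum for testing through their BCAS libraries. The summed scaled length of the 12 was 19819 to 25119 bp in sham and 26404 to 29042 bp in BCAS, so the groups did not overlap. Of 5 markers of border macrophages 4 could be tested, and Cbr2 alone was called higher (0.78, SE 0.19, limma adjusted p = 0.0270), with sums of 2686 to 3543 bp in sham and 3227 to 4483 bp in BCAS.

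Of 9 markers of neutrophils and monocytes, S100a9, Ly6g, Ly6c2, Camp and Retnlg had no peak in any library. S100a8 (234 bp in BCAS replicate 1) and Ccr2 (257 bp in BCAS replicate 2) had bases under peaks in 1 BCAS library each and in no sham library. The remaining 2 could be tested and neither was called. The sums over all 9 were 746 to 1136 bp in sham and 813 to 1415 bp in BCAS. None of the 5 endothelial markers was called, though their sums, 8563 to 12016 bp in sham and 12922 to 14704 bp in BCAS, did not overlap. None of the 8 neuronal markers was called, with sums of 51509 to 58233 bp and 45921 to 57807 bp. The sums of the 5 astrocytic markers were 17085 to 19314 bp and 18235 to 20898 bp, those of the 5 oligodendrocytic markers 13803 to 18730 bp and 14676 to 16362 bp, and none of either was called. The microglial and endothelial sums were higher in every BCAS library than in every sham library. So were the sum of the 21 Rac and oxidase regulators and the Rac2 and Ncf4 loci. The part of microglia and endothelial cells in the differences was not tested.

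The 3 tested genes whose scaled lengths followed Rac2 most closely over the 8 libraries were Zan, Otc and Samsn1, with root mean square differences of 0.333, 0.361 and 0.401 on the log2 scale after each gene was centred on its own mean. The match used the sham and BCAS values of Rac2 together. Differences above 0 in these genes therefore follow from how they were picked and are no separate result. Samsn1 encodes an adaptor of immune cells, and its locus had 521, 323, 938 and 548 bp under peaks in sham replicates 1 to 4 and 2710, 1833, 2266 and 1876 bp in BCAS replicates 1 to 4 (log2 difference 1.57, SE 0.17, limma adjusted p = 0.000166). Otc, a urea cycle enzyme, had a log2 difference of 1.29 (SE 0.28, limma adjusted p = 0.0153), and Zan, which encodes a sperm protein, one of 1.11 (SE 0.35, limma adjusted p = 0.0959).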

How the data were processed

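Peak lists of 8 ATAC-seq libraries were analysed. Per the labels, the authors used FastQC, Trim Galore, Bowtie2 2.3.4.3, SAMtools 1.9, MACS2 and DiffBind with the mm10 genome, and peaks were called for each library by itself. Neither the MACS2 options nor the treatment of the transposase offset could be found in the labels or methods. The deposited lists give for each peak a position, a score, a fold enrichment (ratio), a −log10 p and a −log10 q. No read counts are in them. Peaks on 21 chromosomes were used and 861 peaks on other sequences left out. Every peak end lies within the GRCm38 chromosome lengths.

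Bases under peaks were counted in each GENCODE M21 protein-coding gene body with 3 kb on either side, and scaled to the mean library total. Genes were kept where the mean over libraries reached 200 bp, which left 17035 of 21938, and compared with limma 3.58.1 (R 4.3.3, moderated test with trend in the variance, no covariate, Benjamini-Hochberg). Genes below 200 bp in sham, such as Rac2, could pass this minimum through their BCAS libraries. The p-values measure the spread between mice. The fit was tested on simulated data with normal noise on the log2 scale, which did not reproduce loci that hold 0 bp in some libraries. Peaks sharing 1 bp were merged, and fold percentiles were taken within each library. Matches to motif letters were counted within 100 bp of the strongest summit (Python 3.11.15, pandas 2.3.3).

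The genes, lists and tests were chosen with earlier results of these data known. Genes were named by a rule: the 6 subunits, listed genes that were called, Nox4, Cybc1, Rac3 and Vav1, genes that share DNA with a subunit's locus, and the 3 genes most like each called subunit. Duox2, S100a9, Ly6g, Ly6c2, Camp and Retnlg were named outside it, after their values were seen, because their loci held no peak. S100a8 and Ccr2 were likewise named outside it, as the other markers of neutrophils and monocytes without a peak in any sham library. A gene of the oxidase list is not reported here. Alternatives are given in the closing section.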

Additional observations from a re-analysis of the deposited data

Results flagged for a closer look

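Among the 12 groups of 4 libraries formed by the 6 genes and both operations, 2 held a library far from the other 3 by Dixon's test at the 95% level, which chance alone gives in about 1 of 20 groups. The scaled length under peaks of the Cybb locus was 429.3 bp in sham replicate 1, against 347.5 to 358.4 bp in the other sham libraries. The scaled length of the Ncf1 locus was 697.9 bp in sham replicate 4, against 272.4 to 308.6 bp in the other sham libraries, and this library alone among the sham libraries had the peak over the Ncf1 start. On the unscaled lengths these groups were not set apart, and 2 others were, namely Ncf4 in BCAS, with 2513 bp in replicate 1 against 1653 to 1709 bp, and Rac1 in sham, with 643 bp in replicate 4 against 2057 to 2248 bp. The part of depth or of the dissection in either value was not tested.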

How the results depend on the processing

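Of the 6 genes, 1 was called with the main processing. The count was 2 for the gene body without the sides (Ncf4 and Rac2) and 0 without scaling, with the number of peaks as a covariate and for promoter windows only. Over all tested genes, 422 of 15610 were called higher for the gene body. The numbers were 222 of 17060 without scaling, 393 of 17035 with the covariate and 149 of 14223 in promoter windows. Stricter peaks or lists of equal length kept the count at 1, with Ncf4 in place of Rac2, while 524 of 16824 and 557 of 16778 tested genes were called higher. Leaving out 1 library at a time gave 0 (without BCAS replicate 1 or 3) to 3 (without sham replicate 4, where Cyba and Ncf1 joined Rac2). Without sham replicate 4, 666 of 17062 tested genes were called higher, the most of these fits. Without BCAS replicates 1 and 3 the numbers were 326 of 16992 and 284 of 16989. All log2 differences of the 6 genes were above 0 under every alternative that could be fitted except that of Ncf4 in promoter windows, −0.058. Ncf1 was below the minimum length for gene bodies and, like Cybb, for promoter windows.

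Over all genes, 538 were called higher and 64 lower. These numbers were 222 and 1 without scaling, 149 and 1 in promoter windows and 296 and 26 when scaled to the median gene, and leaving out 1 library gave 284 to 666 (fewest without BCAS replicate 3, and 326 without BCAS replicate 1) and 25 to 90. Same-numbered libraries did not deviate together (correlations −0.16, −0.0109, −0.0967 and 0.138), so the numbers are not taken to pair mice. With a replicate block, 778 genes were called higher and 160 lower, and Rac2 kept its call (adjusted p = 0.000251).

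The region in every BCAS and no sham library was 1 with stricter peaks, equal lists or gaps of up to 100 bp closed, 0 with windows of 100 bp on each side of the summits, and 1 to 2 when 1 library was left out (2 without sham replicate 4 or BCAS replicate 2). Within 50 bp of the summit, 0 of the 24 regions held a PU.1 match, 0 an ETS and 1 a PU.1-IRF match, where 2, 1 and 3 did within 100 bp. Of all merged regions, 1.76%, 0.439% and 3.61% held these matches within 50 bp. Over whole regions, 5 of the 24 held a PU.1 match, against 4.78% of all, and 6 a PU.1-IRF match, against 14.4%. A C/EBP match lay in 4, against 20%, and a RUNX match in 1, against 9.39%. Read depth cannot be read from peak lists, so an absent peak may mean too few reads.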
